A study of Homo sapiens with 22 samples.

Results

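Genomic imprinting silences a gene on the copy inherited from one parent, and CTCF is part of how several imprinted domains keep their copies apart. Here 8 genes of such domains (H19, IGF2, KCNQ1OT1, DLK1, MEG3, PEG10, PEG3 and GNAS) were followed in K562 cells differentiated with PMA. Members were all regions of the 4 deposited count tables (CTCF, Rad21, H3K27ac and Jun) that overlap a gene's RefSeq span on GRCh38 by at least 1 bp, after the span was extended by 50 kb on each side. This gave 170 of 409446 regions: 28 of 66168 for CTCF, 38 of 109111 for Rad21, 51 of 95436 for H3K27ac and 53 of 138731 for Jun. Regions were taken by position, not by measured values, though the members were chosen with earlier results of these data known.

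K562 is a human leukemia line with erythroid and megakaryocyte potential, labelled wild type in every library. All cells were grown in RPMI medium with serum and exposed to 25 nM PMA, a phorbol ester that activates protein kinase C, for the length of each time point, so the 0 h samples are the start of the series. Formaldehyde-crosslinked cells were profiled with antibodies against CTCF, H3K27ac and Jun at 0, 6 and 72 h and against Rad21 at 0 and 72 h, which gives 11 groups of 2 libraries each and 22 libraries in all. The series' title names chromatin loops and the features at and between their anchors as its subject, and the labels describe PMA as a way to obtain megakaryocyte-like cells. The line is 1 tumour-derived population, the tables do not separate the maternal from the paternal copy, and no input or isotype control was analysed here. The labels number the replicates but do not say that they came from separate cultures, so p-values measure the spread between these samples, which may be technical.

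As background, CTCF is a zinc-finger protein that binds a long sequence motif and stops cohesin, a ring complex that extrudes chromatin loops, at domain borders; Rad21 is a core subunit of that ring. At the H19 and IGF2 locus a control region upstream of H19 binds CTCF on the unmethylated maternal copy and insulates IGF2, a fetal growth factor gene, from enhancers beyond H19, a long noncoding RNA gene. KCNQ1OT1 is a noncoding RNA transcribed antisense inside KCNQ1, a potassium channel gene, and silences its neighbours on the same copy. DLK1, a Notch-related membrane protein, and MEG3, a noncoding RNA, are expressed from opposite parental copies of one domain. PEG10 and PEG3 are paternally expressed, encoding a retrotransposon-derived protein and a zinc-finger protein. GNAS encodes the stimulatory G protein alpha subunit and has several alternative first exons with their own imprint. H3K27ac marks active promoters and enhancers, and Jun is a subunit of AP-1, the transcription factor that PMA is known to activate.

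RefSeq promoters (GRCh38.p14, windows of 300 bases around a start) were available for 3 of the 8 genes, with 10 entries: 1 for H19, 3 overlapping ones for MEG3 and 6 for GNAS. Only 1 of these 10 overlapped a region of any of the 4 tables, the GNAS promoter at chr20:58839498-58839797 on the plus strand, whose first 132 bases lie in the CTCF region chr20:58839212-58839629. It is shown because it is the only one of these 10 promoters that overlaps a CTCF region. Promoters of other genes in the windows were not compared with the regions. Capitals mark the bases inside the CTCF region.

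GNAS promoter: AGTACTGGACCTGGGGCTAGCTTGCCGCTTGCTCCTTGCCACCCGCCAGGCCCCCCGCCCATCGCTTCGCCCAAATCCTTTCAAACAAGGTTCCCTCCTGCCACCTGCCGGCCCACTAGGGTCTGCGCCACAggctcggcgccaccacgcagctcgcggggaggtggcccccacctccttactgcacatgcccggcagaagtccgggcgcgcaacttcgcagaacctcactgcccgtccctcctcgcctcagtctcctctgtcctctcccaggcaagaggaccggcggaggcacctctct

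The sequence has 67.3% G and C. The core of the CTCF motif was searched on both strands in 3 forms, a loose one and 2 stricter ones whose matches may overlap. None of the 10 promoters held any of them, and 3.49% of all 35116 RefSeq promoters held at least 1, so absence is the usual case in a window of this length. No match says only that these letters are not in the windows.

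Counts summed over each table's regions ranged from 2553677 to 6068421 per CTCF library, 4398797 to 7285286 for Rad21, 12634261 to 27266241 for H3K27ac and 4766421 to 18883962 for Jun. Mitochondrial regions took 9.55 to 30.5% of CTCF, 24.8 to 34.1% of Rad21, 0.286 to 1.47% of H3K27ac and 8.58 to 27.7% of Jun counts. That share was lower at 72 h than at 0 h in both CTCF libraries and in both Jun libraries. The CTCF, Rad21, H3K27ac and Jun medians of all regions moved to 0.26, -0.22, 0.42 and 0.73 on the log2 scale at 72 against 0 h when libraries were scaled to all counts, from 0.03, -0.05, 0.18 and 0.17. With mitochondrial counts left out of that scale they were 0.09, -0.21, 0.41 and 0.43. Of 10 erythroid marker genes, 6, 6 and 8 had an H3K27ac peak in both replicates at 0, 6 and 72 h, and of 8 megakaryocyte genes 4, 3 and 7 did. The same held at 72 h for 2 of 3 T cell, 2 of 3 B cell and 3 of 3 epithelial markers and for 0 of 3 liver markers.

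CTCF at the imprinted genes was concentrated in a few strong regions, and most of their counts did not pass the test over time. The CTCF regions beside H19 and IGF2 and one in the MEG8 and RTL1 spans of the MEG3 window were the 3 of 28 with a peak in all 6 libraries. No CTCF region lay in the DLK1 or PEG3 windows. GNAS had 9, MEG3 6, IGF2 5, H19 4, and KCNQ1OT1 and PEG10 2 each. Peaks in both replicates were found in 7, 4 and 8 of the 28 regions at 0, 6 and 72 h, or 25, 14.3 and 28.6%, against 34.6, 23.1 and 36.1% of all CTCF regions.

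**Figure D1:**
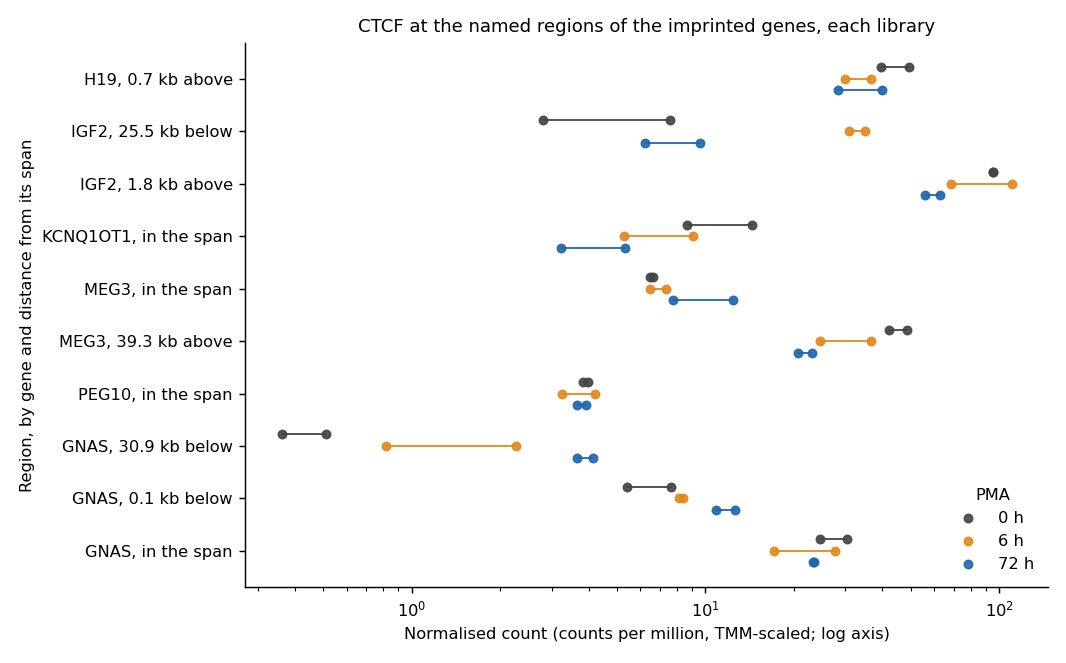
CTCF normalised counts (CPM, log axis) at the 10 named regions, 1 point per library with a line joining the 2 libraries of a time; names give the gene and the distance from its span, above meaning higher coordinates. The region 25.5 kb below IGF2 stands out at 6 h, with both 6 h libraries above all libraries of the other times, and the region 39.3 kb above MEG3 has both 72 h libraries below both 0 h libraries.

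The strongest CTCF region of the H19 window, chr11:2001997-2003015, starts 731 bp upstream of H19, whose span is chr11:1995176-2001266 on the minus strand, and lies in the MRPL23 span. Its counts were 155 and 137 before PMA, 92 and 90 after 6 h, and 174 and 202 after 72 h. After scaling, these became 44.5 ± 7.02, 33.2 ± 4.83 and 34.2 ± 8.28 normalised counts (CPM, scaled to library size; mean ± SD, n = 2). The ranges at 0 and 72 h overlapped, the log2 fold change at 72 against 0 h was -0.38 ± 0.27 (SE), and edgeR's adjusted p was 0.349. At 6 against 0 h it was -0.42 ± 0.27 with an edgeR adjusted p of 0.566. The deposited Rad21 regions included none in the H19 window, so no Rad21 count was available beside this CTCF region.

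The most strongly bound CTCF region of all 28, chr11:2151356-2152379, lies 1.79 kb above the IGF2 span, inside INS-IGF2. It had 374 and 265 counts before PMA, 212 and 272 after 6 h, and 274 and 399 after 72 h. Scaled levels were 95.5 ± 0.21, 89.6 ± 29.7 and 59.6 ± 5.01 CPM (mean ± SD, n = 2). Both 72 h libraries were below both 0 h libraries, as in 30.4% of all tested CTCF regions. The log2 fold change of -0.68 ± 0.29 did not pass the test (edgeR adjusted p = 0.134). A fit on the 0 and 72 h libraries alone called 11351 of 56392 CTCF regions, against 3951 of 58156 with all times. In that fit this region passed (-0.68, edgeR adjusted p = 0.0148). Both Rad21 regions overlapping it, described after their values were seen, were weak, at 33 and 20 counts before PMA against 25 and 15 after 72 h for the lower one and 61 and 20 against 43 and 25 for the upper one. Their log2 fold changes at 72 h were -0.52 and -0.34 with edgeR adjusted p of 0.384 and 0.54.

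A CTCF region in the space below IGF2 was high at 6 h and low before and after. At chr11:2103230-2103610, 25.5 kb below the IGF2 span and outside any RefSeq gene, CTCF counts were 11 and 21 before PMA, 95 and 86 after 6 h, and 27 and 68 after 72 h. The corresponding levels were 5.19 ± 3.38, 32.9 ± 2.99 and 7.89 ± 2.36 CPM (mean ± SD, n = 2), so the 6 h libraries overlapped neither other time. The change was 2.73 ± 0.39 at 6 against 0 h (edgeR adjusted p = 0.00059) and -2.02 ± 0.34 at 72 against 6 h (edgeR adjusted p = 0.00282). Without the first 0 h library the rise at 6 h was 2.11 with an edgeR adjusted p of 0.0593; without each other library it was called.

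Rad21 and Jun changed at the same coordinates by 72 h. At 72 against 0 h CTCF there did not pass the test (0.71 ± 0.41, edgeR adjusted p = 0.261). Jun did not pass it at 6 against 0 h (0.51 ± 0.29, edgeR adjusted p = 0.222), and Rad21 was not profiled at 6 h. Rad21 counts rose from 41 and 28 to 133 and 144, or from 6.18 ± 0.38 to 23.5 ± 5.2 CPM (mean ± SD, n = 2), a log2 fold change of 1.91 ± 0.28 (edgeR adjusted p = 5.72e-05). Jun counts of 51 and 40 before PMA, 47 and 45 after 6 h, and 27 and 28 after 72 h gave 6.58 ± 1.21, 9.44 ± 1.74 and 1.24 ± 0.0675 CPM (mean ± SD, n = 2). Jun thus fell by 2.40 on the log2 scale at 72 against 0 h (SE 0.31, edgeR adjusted p = 2.34e-06). The Rad21 rise was called under every alternative fitted, and this Jun fall under every alternative that tested the region. The start and end are identical in the CTCF, Rad21 and Jun tables, which is true of 473 regions in the whole series and of no other member. Of those 473 regions 255 are 381 bp long like this one; what sets these coordinates, and its part in the counts, was not tested.

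At KCNQ1OT1 the 4 antibodies' regions around the upper end of its span, where this antisense transcript is known to begin, differed between antibodies: H3K27ac and Jun fell, CTCF was lower without passing the test, and Rad21 did not pass it. The CTCF region chr11:2699821-2700294 had 34 and 40 counts before PMA, 28 and 13 after 6 h, and 14 and 38 after 72 h, and a log2 fold change of -1.37 ± 0.42 after 72 h missed the threshold (edgeR adjusted p = 0.0575). It passed when fitted on the 0 and 72 h libraries alone (-1.35, edgeR adjusted p = 0.0214), the fit with more calls over all CTCF regions. H3K27ac at chr11:2699742-2701162 fell from 399 and 458 through 228 and 336 to 296 and 287 counts, or from 23.4 ± 1.04 through 16.2 ± 0.412 to 10.6 ± 0.185 CPM (mean ± SD, n = 2). No library overlapped a library of another time, and the change at 72 h was -1.14 ± 0.12 (edgeR adjusted p = 5.47e-09). Jun at chr11:2699964-2700415 had 58 and 59 counts before PMA, 20 and 27 after 6 h, and 51 and 73 after 72 h; scaled to depth it fell by 1.61 on the log2 scale at 72 h (SE 0.27, edgeR adjusted p = 4.22e-05). Rad21 at chr11:2699990-2700311 had 22 and 26 against 22 and 39 counts, a log2 fold change of 0.24 ± 0.43 (edgeR adjusted p = 0.708).

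In the MEG3 window the strongest CTCF region and the Rad21 region on it both fell. The CTCF region chr14:100900346-100901094, 39.3 kb above MEG3 in the MEG8 and RTL1 spans, had 166 and 135 counts before PMA, 76 and 90 after 6 h, and 100 and 147 after 72 h. These were 45.5 ± 4.53, 30.6 ± 8.49 and 21.9 ± 1.69 CPM (mean ± SD, n = 2), and the change at 72 h was -1.06 ± 0.26 (edgeR adjusted p = 0.0274). Rad21 at chr14:100900441-100901113 went from 56 and 56 to 29 and 26 counts, or -1.15 ± 0.33 on the log2 scale (edgeR adjusted p = 0.0153). H3K27ac at chr14:100899786-100900994, named after its values were seen, had 141 and 174 counts before PMA against 132 and 112 after 72 h and fell by 0.96 (edgeR adjusted p = 3.19e-05). In bulk cells, fewer bound cells and less binding per cell cannot be told apart. The CTCF call was lost without either 0 h or either 72 h library (-1.16 to -0.93, edgeR adjusted p = 0.106 to 0.255), with all counts as the scale (-0.83, 0.106), with loess offsets (-0.75, 0.0844), with DESeq2 (-1.04, 0.0744) and at a mean count of at least 50 (-0.78, 0.0838). The Rad21 call was lost without either 72 h library or without the second 0 h library (-1.16 to -0.91, edgeR adjusted p = 0.0909 to 0.233) and with DESeq2 (-1.07, 0.163).

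A weak CTCF region below GNAS had higher counts at 72 h, where Jun and H3K27ac also rose. At chr20:58808667-58808874, 30.9 kb below the GNAS span, CTCF counts were 2 and 1 before PMA, 7 and 2 after 6 h, and 18 and 26 after 72 h. The change at 72 h was 3.03 ± 0.86 (edgeR adjusted p = 0.0433), and the ratio of pooled scaled counts was 8.57 with a 95% exact counting interval of 2.75 to 43.1. No library had a CTCF peak there, and the call was lost without any 1 of the 4 libraries compared (2.89 to 3.32, edgeR adjusted p = 0.166 to 0.313) and with loess offsets (1.74, 0.242). DESeq2 did not call this CTCF region either. Jun at the overlapping chr20:58808475-58809007 rose from 8 and 13 through 37 and 42 to 144 and 195 counts, or from 1.51 ± 0.493 through 8.03 ± 0.519 to 7.56 ± 1.01 CPM (mean ± SD, n = 2). That is 2.31 ± 0.33 on the log2 scale at 72 h (edgeR adjusted p = 7.18e-06). H3K27ac at chr20:58808377-58808740, named after its values were seen, had 0 and 2, 29 and 12, and 45 and 42 counts, an edgeR log2 fold change of 4.71 (adjusted p = 1.3e-05) at 72 h and a counting ratio of 28.9 (95% interval 7.76 to 242.0).

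The CTCF regions named inside and at the border of GNAS did not pass the test. The strongest, chr20:58870059-58870860, had 119 and 68 counts before PMA, 53 and 68 after 6 h, and 102 and 165 after 72 h, or 27.4 ± 4.1, 22.4 ± 7.43 and 23.3 ± 0.228 CPM (mean ± SD, n = 2). Its log2 fold change at 72 h was -0.24 ± 0.27 with an edgeR adjusted p of 0.57, and Rad21 at chr20:58870313-58870905 had 43 and 27 against 29 and 35 counts (-0.21 ± 0.36, edgeR adjusted p = 0.693). The region over the promoter printed above, chr20:58839212-58839629, ends 119 bp before the GNAS span and lies in GNAS-AS1. It had 30 and 15, 26 and 20, and 47 and 90 counts at 0, 6 and 72 h. Both 72 h libraries were above both 0 h libraries (11.7 ± 1.28 against 6.53 ± 1.58 CPM, n = 2), as in 33.2% of all tested CTCF regions. The log2 fold change of 0.83 ± 0.35 did not pass the test (edgeR adjusted p = 0.134). The Rad21 region nearest a GNAS start, chr20:58893031-58893282, lies 3.85 kb beyond it and had 23 and 13 against 14 and 12 counts (-0.56 ± 0.54, edgeR adjusted p = 0.46).

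The nearest CTCF region to the MEG3 start, chr14:100851140-100851674, lies 25.0 kb into the gene, with 26 and 18 counts before PMA, 20 and 18 after 6 h, and 54 and 55 after 72 h (0.59 ± 0.38 at 72 h, edgeR adjusted p = 0.31). The strongest PEG10 region, chr7:94658378-94658686 inside the gene, had 15 and 11, 13 and 8, and 17 and 26 counts, a log2 fold change of -0.04 ± 0.53 at 72 h (edgeR adjusted p = 0.965).

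Over the whole list, 26 of the 28 CTCF regions had enough counts to be tested. At 6 against 0 h 1 of 26 was called, higher, where 2.65% of all 58156 tested CTCF regions were called. At 72 against 0 h 2 of 26 were called, 1 higher and 1 lower, against 6.79% of all. At 72 against 6 h 1 of 26 was called, lower, against 2.18% of all. The median log2 fold changes of the members were 0.05, 0.05 and -0.07 beside 0.02, 0.03 and 0.00 for all tested regions. With 1 or 2 calls each, these counts lie near the background. With all counts as the scale the 2 calls at 72 against 0 h were both higher. Among all called CTCF regions 1353 were higher and 189 lower at 6 against 0 h. At 72 against 0 h these numbers were 2368 and 1583, and at 72 against 6 h 261 and 1005.

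**Figure D2:**
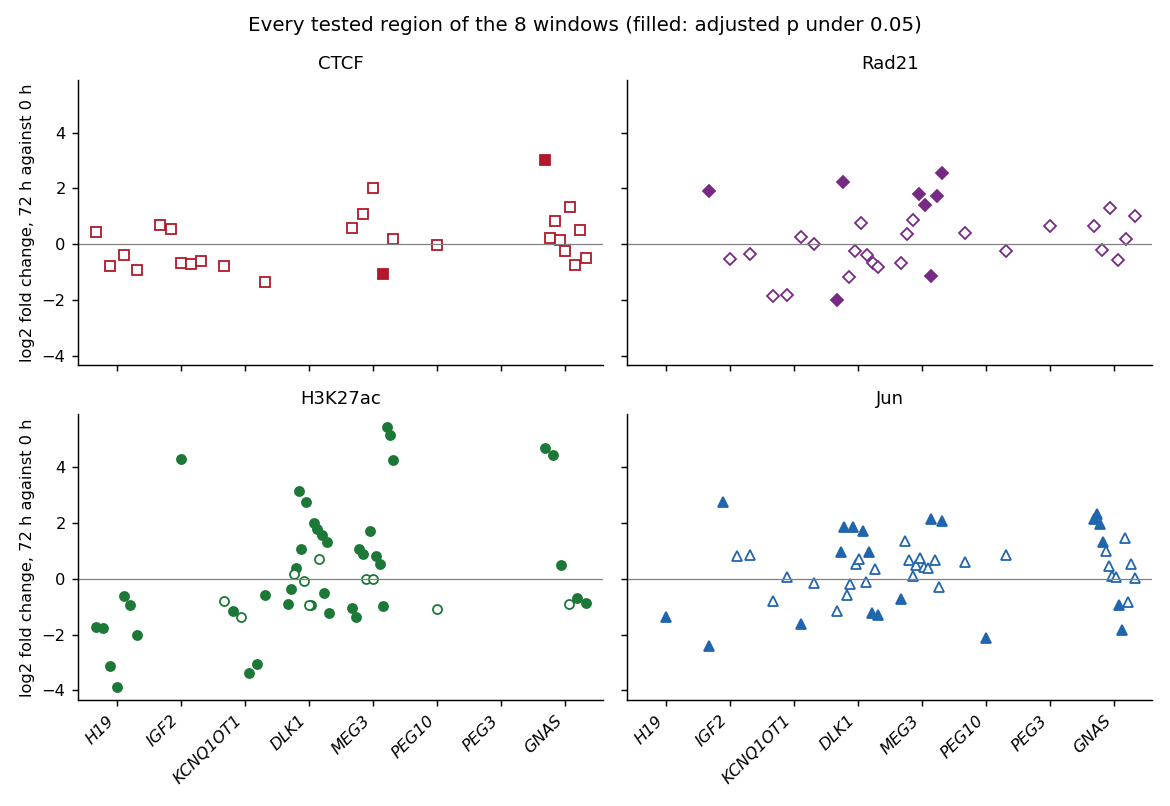
log2 fold change at 72 against 0 h for every tested region, by gene window (x axis) and antibody (panels); filled symbols passed edgeR's adjusted p of 0.05. H3K27ac was lower in all 7 regions of the H19 window, which lie outside the H19 span, and the 8 filled Rad21 symbols lie in the IGF2, DLK1 and MEG3 windows.

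Rad21 rose at 6 and fell at 2 member regions by 72 h, a share near that of all regions. Of 38 member regions 32 were tested, and 8 (25%) were called at 72 against 0 h, against 23.3% of all 83750 tested Rad21 regions. Among all called Rad21 regions 12906 were higher and 6621 lower. The members' median log2 fold change was 0.11 beside -0.05 for all. MEG3 had 5 calls among 8 tested regions (4 higher, 1 lower), DLK1 2 among 8 (1 higher, 1 lower) and IGF2 1 among 3. The 4 tested regions of KCNQ1OT1, 2 of PEG10, 1 of PEG3 and 6 of GNAS had edgeR adjusted p from 0.0659 to 0.986. Scaled to all counts, 10 members were called, 5 in each direction, so the balance of rises and falls depended on scaling. DESeq2 called 3, and without the second 72 h library edgeR called 2.

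The highest Rad21 region of the MEG3 window, chr14:100871267-100872508, lies 10.2 kb above the gene and rose from 49 and 40 to 151 and 110 counts. This was 8.07 ± 0.522 to 21.6 ± 1.23 CPM (mean ± SD, n = 2), a log2 fold change of 1.42 ± 0.27 (edgeR adjusted p = 0.000562), called under every alternative fitted. It is also the most strongly bound Jun region of the windows. Jun at chr14:100871210-100872759 had 325 and 364 counts before PMA, 447 and 651 after 6 h, and 1368 and 1550 after 72 h, or 49.8 ± 3.37, 110 ± 12.3 and 65.4 ± 0.522 CPM (mean ± SD, n = 2). Jun was 1.15 ± 0.19 higher at 6 h on the log2 scale (edgeR adjusted p = 0.00015) and 0.39 ± 0.19 at 72 h, which did not pass (edgeR adjusted p = 0.0827). With all counts as the scale the 72 h value was 0.96 (edgeR adjusted p = 0.000515), and with loess offsets 1.45 (6.11e-07). H3K27ac over it, chr14:100870799-100873242, rose from 402 and 461 to 1017 and 867 counts, or by 0.54 ± 0.11 (edgeR adjusted p = 0.000116). Both CTCF regions under it were weak and missed the threshold. The lower, chr14:100871272-100871748, had 12 and 6 counts before PMA, 12 and 8 after 6 h, and 26 and 38 after 72 h (1.08 ± 0.53, edgeR adjusted p = 0.189). The upper, chr14:100871844-100872332, had 7 and 2, 9 and 10, and 25 and 37 (2.02 ± 0.63, edgeR adjusted p = 0.058). Both were described after their values were seen.

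Nearer the gene, Rad21 at chr14:100864904-100865342 rose from 14 and 11 to 43 and 50 counts (1.79 ± 0.41, edgeR adjusted p = 0.00321). The call was lost without the second 72 h library (1.57, edgeR adjusted p = 0.059). In MEG8, Rad21 rose at chr14:100906364-100906820 from 11 and 8 to 33 and 35 counts (1.73 ± 0.47, edgeR adjusted p = 0.0104) and at chr14:100907498-100907730 from 2 and 4 to 24 and 16 (2.54 ± 0.76, edgeR adjusted p = 0.0181). The former was lost without the second 72 h library (1.58, edgeR adjusted p = 0.123) and with DESeq2 (1.82, 0.0812). The latter was lost without the first 72 h (2.44, 0.471), the second 72 h (2.72, 0.174) or the first 0 h library (2.15, 0.0661; edgeR adjusted p in each case). DESeq2 did not call chr14:100907498-100907730 either. The Rad21 region nearest the MEG3 start, chr14:100849177-100849491, had 13 and 13 against 19 and 18 counts (0.38 ± 0.53, edgeR adjusted p = 0.623).

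Around DLK1, Rad21 fell at chr14:100678025-100678404, 48.5 kb below the gene, from 46 and 21 to 14 and 4 counts (-1.99 ± 0.51, edgeR adjusted p = 0.00731). Without the second 72 h library the value was -1.43 (edgeR adjusted p = 0.12), without the first 0 h library -1.38 (0.179), and with DESeq2 -1.96 (0.0881). It rose at chr14:100693302-100693501 from 2 and 4 to 21 and 12 counts (2.25 ± 0.82, edgeR adjusted p = 0.0487). That call was lost without the first 72 h (2.03, 0.69), the second 72 h (2.52, 0.315) or the first 0 h library (1.86, 0.152; edgeR adjusted p in each case). It was also lost with all counts as the scale (2.08, 0.0732), with mitochondrial counts left out of that scale (adjusted p = 0.0605) and with no filter on low counts (2.32, 0.0603). DESeq2 did not call this region either. The strongest DLK1 Rad21 region, chr14:100771154-100771692, had 75 and 44 against 32 and 39 counts (-0.82 ± 0.32, edgeR adjusted p = 0.0664). It passed with all counts as the scale (-0.99, edgeR adjusted p = 0.0264), also without mitochondrial counts (-0.98, 0.033), and without the second 0 h library (-0.96, 0.044). PEG10 had Rad21 peaks in all 4 libraries over the gene at chr7:94657887-94658894, with 115 and 64 against 90 and 72 counts (-0.24 ± 0.26, edgeR adjusted p = 0.526). The only Rad21 region near PEG3, chr19:56781147-56781346 in the ZIM2 span, had 7 and 13 against 23 and 13 counts (0.66 ± 0.60, edgeR adjusted p = 0.436).

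**Figure D3:**
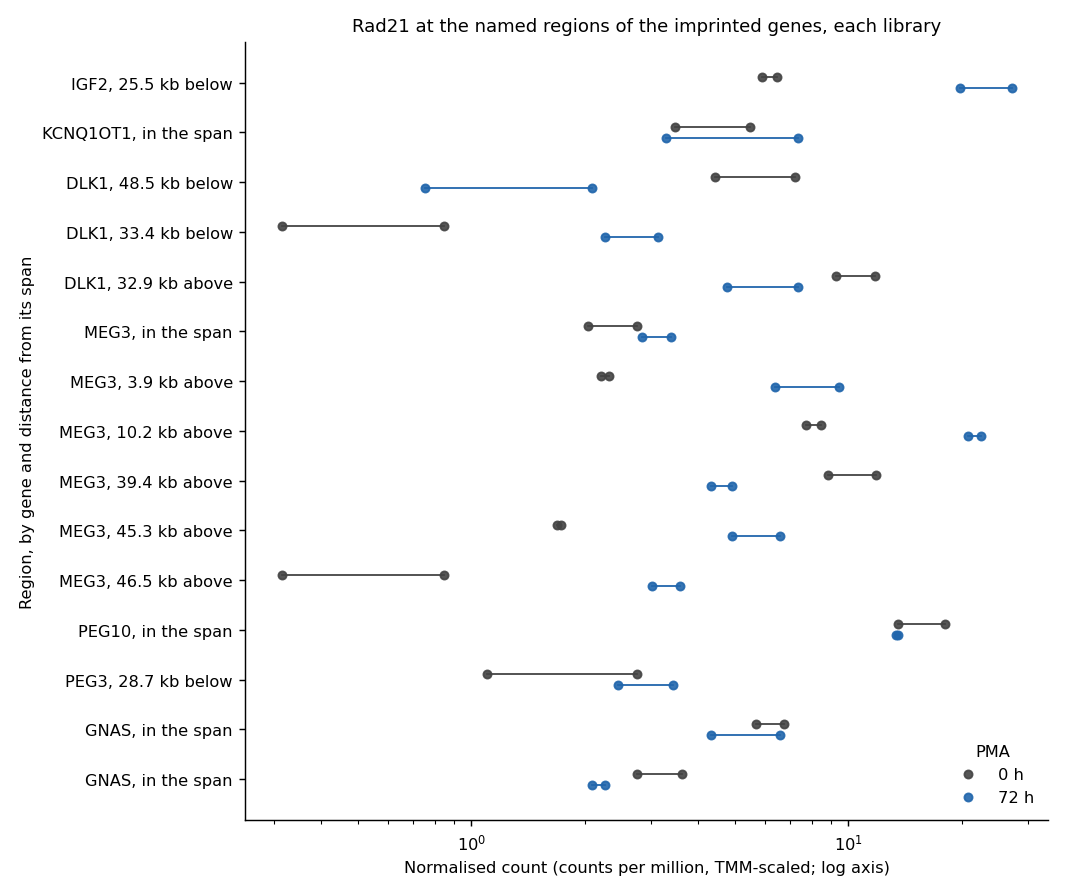
Rad21 normalised counts (CPM, log axis) at the 15 named regions, 1 point per library, with a line joining the 2 libraries of a time. At the region 25.5 kb below IGF2 and at that 10.2 kb above MEG3 both 72 h libraries exceed both 0 h libraries; at PEG10 the 72 h libraries lie at the lower edge of the 0 h range.

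CTCF and Rad21 regions of the windows coincided in part. Of the 28 CTCF regions 14 (50%) overlapped a Rad21 region, against 60% of all CTCF regions. With Rad21 peaks in both replicates required, 3 of 28 (10.7%) did so at 0 h and 4 of 28 (14.3%) at 72 h, against 25.3 and 21.5% of all. Of the 8 called Rad21 regions, 4 overlapped a tested CTCF region, all 4 with the same direction and 1 of them (25%) called. Over all called Rad21 regions 44% overlapped one, 90.2% of those had the same direction and 18.9% were called in it. For H3K27ac, 7 of 8 overlapped a tested H3K27ac region, and all 7 of those were called in the same direction. Over all 19527 called Rad21 regions, 67.6% overlapped one, and 89.6% of those were called in the same direction. For Jun, 7 of 8 overlapped, of which 2 were called in the same direction and 1, the region below IGF2, in the opposite one; over all called Rad21 regions 66.2% of those overlapping were called in the same direction.

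H3K27ac fell in the MRPL23 part of the H19 window, outside H19 itself, and rose in parts of the DLK1, MEG3 and GNAS windows. All 51 member regions were tested. At 6 against 0 h 33 were called, 18 higher and 15 lower, where 58.6% of all tested regions were called. At 72 against 0 h 41 were called, 20 higher and 21 lower, against 81.5% of all. At 72 against 6 h 25 were called, 13 higher and 12 lower, against 63.8% of all. The median at 72 against 0 h was -0.38 for the members and 0.18 for all tested regions; with loess offsets the split was 14 higher and 23 lower. With all counts as the scale it was 22 and 11 at 6 against 0 h and 10 and 14 at 72 against 6 h. Among all called H3K27ac regions 30611 were higher and 24963 lower at 6 against 0 h. At 72 against 0 h these numbers were 41192 and 36097, and at 72 against 6 h 31367 and 29194.

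No H3K27ac region overlapped the H19 span, and the 7 regions of its window lay below it in MRPL23, a mitochondrial ribosomal protein gene. All 7 were lower at 72 h, with log2 fold changes from -3.88 to -0.60. The value of -3.88 was at chr11:1970135-1970334, with 24 and 18 counts before PMA against 0 and 4 after 72 h. No library had an H3K27ac peak there, nor at chr11:1968850-1969049 or chr11:1990114-1990314. The highest of the 7, chr11:1947334-1949060, fell from 320 and 417 through 163 and 236 to 166 and 169 counts. This was 20.1 ± 2.69, 11.5 ± 0.148 and 6.08 ± 0.103 CPM (mean ± SD, n = 2), or -1.72 ± 0.14 at 72 h (edgeR adjusted p = 5.06e-11), with no overlap between the times. Jun on it, chr11:1947866-1948154, had 14 and 15, 13 and 21, and 18 and 18 counts. Its log2 fold change was -1.36 ± 0.49 at 72 h (edgeR adjusted p = 0.0239), and the call was lost without any 1 of the 4 libraries (-1.44 to -1.32, edgeR adjusted p = 0.0709 to 0.112) and with all counts as the scale (-0.81, 0.165). With mitochondrial counts left out of that scale the Jun call was lost too (-1.10, edgeR adjusted p = 0.0617). DESeq2 did not call this Jun region either (-1.46, DESeq2 adjusted p = 0.0598). The only H3K27ac region near IGF2, chr11:2096972-2097401, had 0 and 3 counts before PMA, 0 and 3 after 6 h, and 61 and 35 after 72 h (4.32 ± 0.79, edgeR adjusted p = 2.22e-05). As a ratio of pooled scaled counts this was 21.3 with a 95% exact counting interval of 7.06 to 105.0; with loess offsets the log2 value was 1.81 (edgeR adjusted p = 0.0758).

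In the DLK1 window 13 of 17 regions were called at 72 h, 8 higher and 5 lower. The largest change among regions of at least median level was at chr14:100693159-100693699, 33.2 kb below the gene, which rose from 19 and 23 through 106 and 122 to 297 and 268 counts (3.15 ± 0.23, edgeR adjusted p = 3.38e-12). Jun at chr14:100693152-100693632 had 15 and 11, 56 and 70, and 155 and 150 counts, or 1.88 ± 0.432, 12.7 ± 0.044 and 6.87 ± 0.71 CPM (mean ± SD, n = 2). Jun was 2.75 ± 0.32 higher at 6 h (edgeR adjusted p = 2.74e-06) and 1.86 ± 0.31 at 72 h (edgeR adjusted p = 3.59e-05), so its 6 h level was the highest of the 3. The most acetylated DLK1 region, chr14:100769984-100772414, went the other way, from 1239 and 1445 through 451 and 650 to 812 and 905 counts, or 73.2 ± 4.09, 31.8 ± 0.306 and 31.2 ± 2.52 CPM (mean ± SD, n = 2). Its fall of 1.20 at 6 h (SE 0.11, edgeR adjusted p = 5.6e-10) was already that of 72 h (-1.23 ± 0.11, edgeR adjusted p = 6.51e-11). The strongest Jun region there, chr14:100755322-100756261, had 238 and 205, 91 and 148, and 290 and 327 counts, and fell by 1.21 at 72 h after scaling (SE 0.19, edgeR adjusted p = 2.08e-05).

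In the MEG3 window 11 of 13 H3K27ac regions were called at 72 h, 8 higher and 3 lower. Within MEG8, 3 neighbouring regions picked after their values were seen showed the widest changes. The highest of them, chr14:100905884-100906566, had 3 and 2 counts before PMA, 44 and 51 after 6 h, and 114 and 169 after 72 h, an edgeR log2 fold change of 5.17 (adjusted p = 9.72e-11). The strong CTCF region of this window, also in MEG8, fell, as given above. The falling regions included chr14:100790147-100791737, 34.4 kb below MEG3, with 648 and 703, 260 and 422, and 441 and 540 counts (-1.05 ± 0.12 at 72 h, edgeR adjusted p = 1.35e-08). Jun rose most at chr14:100872989-100873276, from 8 and 12 through 36 and 29 to 146 and 143 counts (2.16 ± 0.36, edgeR adjusted p = 3.47e-05).

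**Figure D4:**
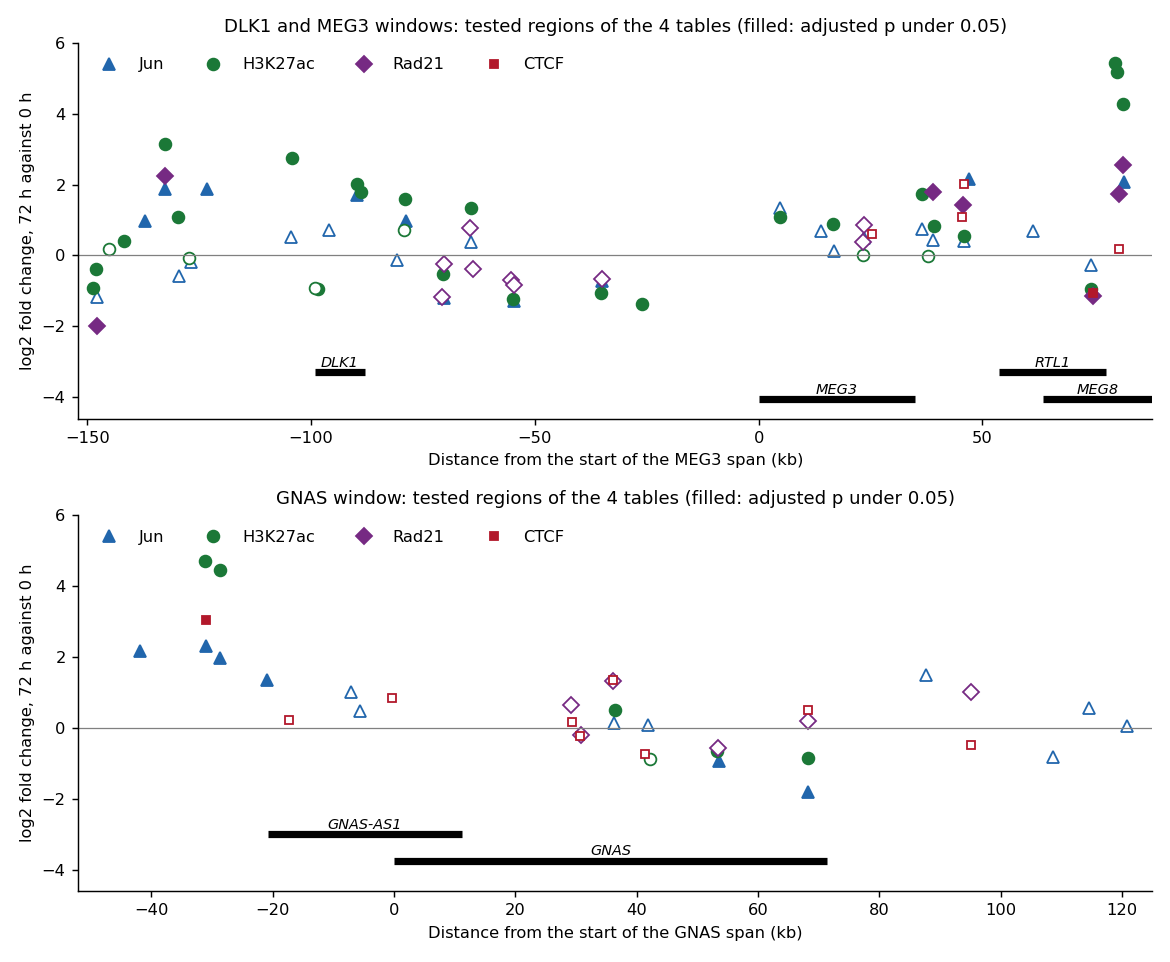
log2 fold change at 72 against 0 h by distance from the start of the MEG3 span (upper panel, kb) and of the GNAS span (lower panel, kb) for every tested region of the 4 tables; filled symbols passed edgeR's adjusted p of 0.05 and black bars are RefSeq spans. The H3K27ac regions with the widest rises lie in MEG8 and below GNAS, at 4.26 to 5.44, while the tested regions of all 4 tables inside GNAS lie between -1.82 and 1.35.

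In the GNAS window 5 of 6 H3K27ac regions were called at 72 h, 3 higher and 2 lower. Acetylation appeared at chr20:58810423-58811864, 27.9 kb below the span, where counts of 3 and 8 became 57 and 72 at 6 h and 179 and 190 at 72 h (4.45 ± 0.34, edgeR adjusted p = 9.88e-12). Of the 4 regions inside the gene 2 fell and 1 rose. The strongest, chr20:58892005-58894094, 2.83 kb beyond a GNAS start, had 796 and 883, 472 and 654, and 744 and 845 counts. These were 45.9 ± 0.938, 32.6 ± 0.593 and 28.9 ± 2.72 CPM (mean ± SD, n = 2), or -0.67 ± 0.11 at 72 h (edgeR adjusted p = 3.13e-06), and -0.17 with loess offsets (0.0897). Jun on it, chr20:58892556-58894147, had 121 and 138, 73 and 116, and 216 and 214 counts, a log2 fold change of 0.02 ± 0.21 at 6 h and -0.95 ± 0.20 at 72 h (edgeR adjusted p = 0.96 and 0.000403). With all counts as the scale the 72 h value was -0.39 (edgeR adjusted p = 0.115). PEG10 had 1 weak H3K27ac region, chr7:94658312-94658547, with 15 and 26 counts before PMA against 15 and 14 after 72 h (-1.07 ± 0.51, edgeR adjusted p = 0.0541). With loess offsets the value was -1.98 (edgeR adjusted p = 0.00102), and without the first 0 h library -1.37 (0.0351).

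Jun rose at 12 and fell at 9 member regions by 72 h. Of 53 member regions 52 were tested. At 6 against 0 h 14 were called, 12 higher and 2 lower, where 25.3% of all 132947 tested Jun regions were called. At 72 against 0 h 21 were called, 12 higher and 9 lower, against 53.7% of all. At 72 against 6 h 9 were called, all lower, against 26.2% of all. With all counts as the scale the split was 26 higher and 5 lower at 72 against 0 h and 2 higher and 4 lower at 72 against 6 h. Among all called Jun regions 17446 were higher and 16166 lower at 6 against 0 h. At 72 against 0 h these numbers were 37175 and 34212, and at 72 against 6 h 16935 and 17886. At 72 against 0 h the largest Jun fall apart from the region below IGF2 was inside PEG10, at chr7:94657797-94658778, with 145 and 163 counts before PMA, 56 and 49 after 6 h, and 120 and 105 after 72 h. These were 22.2 ± 1.57, 10.8 ± 2.67 and 5.08 ± 0.884 CPM (mean ± SD, n = 2), falling by 1.05 at 6 h (SE 0.24, edgeR adjusted p = 0.0021) and by 2.13 at 72 h (SE 0.22, edgeR adjusted p = 1.18e-07). CTCF and Rad21 at the same place, given above, did not pass the test. The strongest Jun region of KCNQ1OT1, chr11:2741632-2742290 in KCNQ1, had 53 and 49, 37 and 38, and 152 and 145 counts (-0.14 ± 0.24 at 72 h, edgeR adjusted p = 0.637). H3K27ac at chr11:2740094-2740675 nearby, named after its values were seen, went from 102 and 115 through 16 and 19 to 15 and 24 counts (-3.05, edgeR adjusted p = 2.59e-09).

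Other imprinted genes served as a wider view, with 38 of 39 listed genes found in RefSeq and the member regions left out. Of 109 tested CTCF regions 6 (5.5%) were called at 72 against 0 h, 4 higher and 2 lower, and 1 (0.917%), higher, at 6 against 0 h. Of 169 Rad21 regions 31 (18.3%) were called, 20 higher and 11 lower. Of 199 H3K27ac regions 171 (85.9%) were called at 72 against 0 h, 92 higher and 79 lower, and of 281 Jun regions 155 (55.2%), 88 higher and 67 lower. These shares lie beside 6.79, 23.3, 81.5 and 53.7% of all tested regions.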

How the data were processed

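Members, lists and tests were chosen with earlier results of these data known. The authors deposited, for each antibody, a table of raw read counts per region and library and, per library, peak lists with MACS2-style −log10 q values. The submitters' processing notes list Trim Galore 0.4.3, BWA 0.7.17, SAMtools 1.9, deepTools 3.0.1, MACS2 and bedtools 2.26; their settings are not given in the sources used here. Coordinates are GRCh38, printed 1-based. Counts were tested over each whole table with edgeR 4.0.16 (quasi-likelihood, TMM scaling, filterByExpr, all time points of an antibody in one fit) in R 4.3.3. Calls had a Benjamini-Hochberg adjusted p under 0.05. The edgeR steps were tested on counts simulated from edgeR's own fitted model. Such counts cannot show how the steps behave on the real ones. Named regions were the highest by mean CPM per gene and antibody, every called CTCF or Rad21 region, for H3K27ac and Jun the largest called change at 72 h per gene among regions of at least median level, and the CTCF and Rad21 regions nearest the H19, MEG3 and GNAS starts. A count ratio's exact 95% interval covers counting error only. Replicate numbers were not used as pairs.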

Additional observations from a re-analysis of the deposited data

Results flagged for a closer look

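At 14 named regions the change from 0 h differed between 6 and 72 h, by edgeR's test of 72 against 6 h. Over all tested regions that test called 2.18% for CTCF, 63.8% for H3K27ac and 26.2% for Jun. The CTCF region was named in part because of this call. H3K27ac and Jun regions were named for the highest level or the largest called change at 72 against 0 h in a window. The number 14 therefore cannot be read against these shares. CTCF below IGF2 (chr11:2103230-2103610) differed by -2.02 on the log2 scale, and by -1.83 (edgeR adjusted p = 0.0551) when regions of a mean count of at least 50 were tested.

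For H3K27ac the difference was -0.92 in the H19 window (chr11:1947334-1949060), 4.26 near IGF2 (chr11:2096972-2097401, 96 against 3 pooled counts) and -0.62 at KCNQ1OT1 (chr11:2699742-2701162). It was 0.62 below DLK1 (chr14:100693159-100693699), 0.26 above MEG3 (chr14:100870799-100873242) and 0.84 below GNAS (chr20:58810423-58811864). The DLK1 call was lost without the first 72 h library (edgeR adjusted p = 0.0528) or the second 6 h library (0.0698). The MEG3 call (edgeR adjusted p = 0.047) was lost under 7 of 12 alternatives, at values from 0.14 to 0.25. These were all counts as the scale, with and without mitochondrial counts, no filter, only both time points, and leaving out the first 72 h or either 6 h library.

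For Jun the difference was -2.06 in the H19 window (chr11:1947866-1948154), -2.91 below IGF2 (chr11:2103230-2103610), and -0.79 and -0.89 near DLK1 (chr14:100755322-100756261 and chr14:100693152-100693632). It was -0.75 above MEG3 (chr14:100871210-100872759), -1.08 in PEG10 (chr7:94657797-94658778) and -0.97 in GNAS (chr20:58892556-58894147). Without the second 72 h library the edgeR adjusted p was 0.066 for H19, 0.108 and 0.168 for the DLK1 regions, 0.117 for MEG3, 0.0956 for PEG10 and 0.078 for GNAS. Without the first 72 h library it was 0.101 and 0.0753 for the DLK1 regions and 0.112 for MEG3, and without the second 6 h library 0.0634 for the first DLK1 region. With all counts as the scale the first DLK1 region had -0.43 (edgeR adjusted p = 0.145), the second -0.53 (0.104) and MEG3 -0.39 (0.163). With loess offsets the first DLK1 region had -0.36 (edgeR adjusted p = 0.153) and MEG3 -0.0087 (0.976). With DESeq2 the second DLK1 region had -0.93 (adjusted p = 0.0631).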

How the results depend on the processing

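No value of a named region that was called changed direction. Of 56 such values 31 were called under every alternative in which the region was tested and given an adjusted p. Alternatives that left a region out were not counted. The 2 CTCF calls at 72 against 0 h became 0 with loess offsets, DESeq2, a mean count of at least 50 or spans without extension, 0 to 0 on leaving out a library, 4 with the replicate block and 5 with only both time points fitted. CTCF calls at 6 against 0 h ranged from 0 to 1 on leaving out a library; at 72 against 6 h from 1 to 4, and 0 at a mean count of at least 50. The 8 Rad21 calls became 3 with DESeq2, 2 at a mean count of at least 50, 0 without extension, 2 to 9 on leaving out a library and 10 with the replicate block. H3K27ac calls became 25 at a mean count of at least 50 (72 against 0 h) and 16 to 21 on leaving out a library (72 against 6 h). Jun calls became 9 with DESeq2 (6 against 0 h), 12 to 16 on leaving out a library (72 against 0 h), and 5 at a mean count of at least 50 or 1 to 10 on leaving out a library (72 against 6 h). The cause was not tested, beyond fewer regions or libraries entering those fits. At a mean count of at least 50, 6 CTCF, 4 Rad21, 29 H3K27ac and 21 Jun members were tested. Without extension 9 CTCF and 10 Rad21 members were. The called share thus did not always drop: H3K27ac had 25 of 29 against 41 of 51 (72 against 0 h). Jun had 5 of 21 against 9 of 52 (72 against 6 h). Deviations of same-numbered libraries correlated at 0.0796 to 0.124 for CTCF, 0.0584 for Rad21 and -0.022 to 0.061 for H3K27ac and Jun. No threshold was applied to these correlations, and they do not decide whether the numbers are pairs. The replicate block was left out of the main fit because no label says that a number is a shared batch. The replicate block raised CTCF calls at 72 against 0 h over all regions from 3951 to 7141. Under it the CTCF region at KCNQ1OT1 (-1.38, edgeR adjusted p = 0.0301) and the strongest DLK1 Rad21 region (-0.83, 0.0466) were called.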
